A study of Homo sapiens with 12 samples.

Results

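Immediate early genes are switched on within minutes of a stimulus without new protein synthesis, mostly by kinase cascades that act on transcription factors already present in the nucleus. Their mRNAs are short-lived, in many cases because AU-rich elements in the 3′ untranslated region recruit decay factors, so their level follows ongoing transcription closely. Many of them depend on release of paused RNA polymerase II, the step that the kinase CDK9 drives. The IER genes encode small regulators, the EGR and KLF genes zinc-finger transcription factors, and DUSP1, DUSP2 and DUSP5 phosphatases that switch off MAP kinases.

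Of 10 such genes (IER2, IER3, IER5, EGR1, EGR2, KLF6, KLF10, DUSP1, DUSP2 and DUSP5), chosen by name and looked up by gene ID, 4 were among the 5759 genes analysed: IER2 (gene ID 9592), IER5 (51278), DUSP1 (1843) and DUSP2 (1844). The other 6 are not analysed here. Each of the 5759 genes, called listed genes below, changed at least 2-fold in at least 1 comparison (the smallest of their largest absolute log2 fold changes is 1.001). The 4 genes are therefore those members that had to differ somewhere, and their counts describe them and support nothing on all 10. Listed genes made up 20.3% of the 28395 tests behind the authors' false discovery rates (FDR), and the 4 genes 40.0% of the 10.

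RNA was sequenced from MOLT4, an established wild-type human cell line of T lymphoblasts from an acute lymphoblastic leukaemia, in 12 samples that formed 4 groups of 3. One group received DMSO vehicle for 6 h, others 955 (0.1 µM) for either 1 h or 6 h, and the last 1 µM SNS-032 for 6 h. SNS-032 is an inhibitor of cyclin-dependent kinases including CDK9, and 955 is a conjugate of piperlongumine with SNS-032 as its warhead, so the design asks how a degrader-type conjugate relates to its parent inhibitor. The doses of the compounds differ, and DMSO was collected at 6 h alone, so compound and dose cannot be told apart at 6 h, and treatment and time in culture cannot be told apart at 1 h. The labels do not say whether the 3 samples of a group were separate cultures, so p-values measure the spread between these samples, which may be technical.

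The table holds comparisons and no values per sample, and the depth behind each value is unknown. Average levels of the listed genes ran from 0.00329 to 15 in the authors' deposited table, in log2 of counts scaled to library size (log2 CPM), with a median of 4.15. Of 19 T lymphoblast markers 8 were listed, with averages in the authors' deposited table from 3.74 (RAG2) to 8.29 log2 CPM (BCL11B). Among them CD3G was at 7.13, CD7 at 7.06 and CD2 at 4.75 in the authors' deposited table. Of 5 B cell markers 1 was listed, CD79A at 3.94 log2 CPM in the authors' deposited table, and of 6 myeloid markers 0. The level of CD79A thus lay within the range of the T lymphoblast markers. A marker that is not listed may still have been expressed.

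The stretches upstream of the 4 genes are shown because IER5, DUSP1 and DUSP2 were lower past the threshold at 6 h with both compounds and IER2 was not, and they show which motif letters each start region holds. Each is the 250 bases before the RefSeq start site (GRCh38.p14), 5′ to 3′ on the gene's strand, with motif matches in capitals. IER2 lies on the plus strand and its stretch at chr19:13150161-13150410, IER5 on the plus strand with chr1:181088450-181088699, DUSP1 on the minus strand with chr5:172771196-172771445, and DUSP2 on the minus strand with chr2:96145441-96145690.
IER2: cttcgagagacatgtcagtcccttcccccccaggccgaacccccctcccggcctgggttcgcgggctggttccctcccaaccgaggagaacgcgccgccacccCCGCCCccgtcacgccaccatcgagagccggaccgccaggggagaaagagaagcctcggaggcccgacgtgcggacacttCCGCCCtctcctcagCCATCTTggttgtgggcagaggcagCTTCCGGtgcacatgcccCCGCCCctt
IER5: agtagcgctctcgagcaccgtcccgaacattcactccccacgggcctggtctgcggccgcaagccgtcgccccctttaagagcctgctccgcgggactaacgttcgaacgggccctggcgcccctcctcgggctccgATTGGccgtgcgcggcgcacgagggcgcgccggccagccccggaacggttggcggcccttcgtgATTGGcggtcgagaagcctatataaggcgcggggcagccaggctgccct
DUSP1: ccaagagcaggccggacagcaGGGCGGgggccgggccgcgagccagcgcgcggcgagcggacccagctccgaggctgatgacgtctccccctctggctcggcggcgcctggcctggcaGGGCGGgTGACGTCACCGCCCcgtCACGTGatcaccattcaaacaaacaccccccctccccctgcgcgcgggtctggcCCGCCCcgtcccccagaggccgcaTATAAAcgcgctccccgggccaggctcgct
DUSP2: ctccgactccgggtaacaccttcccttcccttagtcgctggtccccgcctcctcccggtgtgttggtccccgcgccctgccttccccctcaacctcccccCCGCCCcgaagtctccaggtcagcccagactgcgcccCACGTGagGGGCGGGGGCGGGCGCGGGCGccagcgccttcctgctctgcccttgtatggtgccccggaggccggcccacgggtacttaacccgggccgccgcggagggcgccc
Motifs were searched on both strands, and they were picked as common promoter motifs after the sequences had been seen. The cAMP response element TGACGTCA, bound by CREB-family factors, occurred once, in DUSP1, and in 1.77% of 27305 promoters of the same length. Of the 4534 promoters of listed genes, the set these 4 come from, 3.0% held it, and below the share of all promoters is followed by that of listed genes. DUSP1 also held the only match to the TATA box letters searched (TATAAA, 11.1% and 6.15% of promoters), starting 30 bases before its start site. The stretch of IER5 holds the similar letters TATATAAG near its end, which that search does not count. DUSP1 held an E-box as well (CACGTG, 6.49% and 8.58%), as did DUSP2. The EGR site GCGNGGGCG, the letters that EGR proteins read, occurred 2 times in DUSP2 and in 8.25% and 12.6% of promoters, and the first of these overlaps GC boxes there. IER2 held an ETS site (CCGGAAG, 8.82% and 16.9%) and a YY1 site (AAGATGG, 3.77% and 3.4%), and IER5 held 2 CCAAT boxes (CCAAT, 33.0% and 36.5%). The GC box GGGCGG, a site of SP-family factors, was the most frequent, with 3 matches in IER2, 4 in DUSP1, 3 in DUSP2 and 0 in IER5, against 42.3% and 65.5% of promoters with at least 1. The CArG box, the site of serum response factor, matched in 0 of the 4 stretches and in 1.14% and 1.08% of promoters, which says only that these letters are not in these windows. GC content was 69.6% for IER2, 70.4% for IER5, 74.4% for DUSP1 and 74.0% for DUSP2, against a median of 58.0% over all promoters.

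The 3′ untranslated regions are shown for their AU-rich elements. The 30-base windows richest in ATTTA, the core of AU-rich elements, are shown with the pentamers in capitals, from the GENCODE release 29 transcripts.
IER5: ggtgtcttcctttATTTATTTATTTATTTA
DUSP1: ggctcgagagggctggtccttATTTATTTA
DUSP2: ggaaaattatttgtgctcagctgacATTTA
The IER5 window holds 4 overlapping pentamers, the DUSP1 window 2 and the DUSP2 window 1. In the whole region IER5 had 10 pentamers in 3013 bases, DUSP1 had 4 in 672 and DUSP2 had 3 in 657, or 3.32, 5.95 and 4.57 per kb. IER2 had 0 in 1050 bases, and 0 in each of its 3 annotated transcripts. Of 5195 listed genes with such a region 66.1% had at least 1 pentamer, and the median density was 1.44 per kb. IER5, DUSP1 and DUSP2 thus carried the pentamer and IER2 did not, which is a description of 4 genes and no test.

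All 4 genes are short. Their loci in RefSeq (GRCh38.p14) are chr19:13150411-13154911 for IER2, chr1:181088700-181092900 for IER5, chr5:172768096-172771195 for DUSP1 and chr2:96143169-96145440 for DUSP2. They cover 4501, 4201, 3100 and 2272 bases, and no other RefSeq gene overlaps any of them. In the GENCODE models used, IER5 has 1 exon, DUSP1 and DUSP2 have 4 each, and the IER2 models have 1 or 2. Transcript spans in these models were 2934, 4188, 3106 and 2275 bases, against a median of 21238 bases over the listed protein-coding genes, of which 10.3% were as short as IER5 or shorter.

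IER5, which encodes a nuclear regulator that binds heat shock factor HSF1 and the phosphatase PP2A, was lower with all treatments and by nearly the same amount. Log2 fold changes of IER5 in the authors' deposited table were -1.75 for 955 at 1 h, -1.77 for 955 at 6 h and -1.77 for SNS-032, with FDR of 0.0201, 0.00291 and 0.00285. The implied standard error was 0.39 in each, and the 95% interval at 1 h ran from -2.59 to -0.91. An implied standard error is the absolute log2 fold change divided by the square root of the authors' F statistic, and so follows their model of the spread between samples. The level was 29.8%, 29.3% and 29.3% of that in DMSO, and 955 at 6 h minus 1 h was -0.02 on the log2 scale (interval -0.87 to 0.82). Relative to the 13 mitochondrially encoded mRNAs that step was -1.42 (adjusted p 0.00459), which passed the test.

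DUSP2, a nuclear phosphatase of ERK and p38 found mainly in blood cells, fell with the smallest FDR of the 4 genes in every comparison. The authors' deposited table put DUSP2 at -2.12 for 955 at 1 h (FDR 0.000153), at -2.62 for 955 at 6 h (4.44e-07) and at -2.38 for SNS-032 (1.52e-06). Implied standard errors were 0.31, 0.32 and 0.32. Its level was 23.0% of that in DMSO after 1 h and 16.2% after 6 h of 955, and 19.2% with SNS-032. The further step between 1 h and 6 h of 955 was -0.50 (interval -1.16 to 0.15), which did not pass the test (adjusted p 0.141), but relative to mitochondrial mRNAs it was -1.90 (adjusted p 8.22e-06), which did.

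DUSP1, the nuclear phosphatase that acts on p38, JNK and ERK, had the most negative values of the 4 genes and also the least precise. The authors' deposited table put it at -2.59 for 955 at 1 h, where its FDR of 0.12 did not pass, and its interval ran from -4.36 to -0.82. At 6 h it fell in the authors' deposited table, to -2.97 under 955 (FDR 0.0166) and -2.79 under SNS-032 (FDR 0.0222). Its implied standard errors were 0.81 to 0.83, against medians of 0.23 to 0.24 over the listed genes, and its average level was the lowest of the 4 in the authors' deposited table, at 1.38 log2 CPM. DUSP1 at 1 h was at percentile 0.156 of all listed genes by log2 fold change, below DUSP2 at 0.573 and IER5 at 1.67, although DUSP1 was the one of these 3 that did not pass.

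IER2, a nuclear protein that takes part in transcription control, had another pattern of values. The authors' deposited table put it at -0.77 (interval -1.37 to -0.17) for 955 at 1 h, with an FDR of 0.199, so it did not pass. For 955 at 6 h IER2 was higher than in DMSO in the authors' deposited table, at 1.01 (interval 0.41 to 1.61, FDR 0.0143), just past the bound of 1, but lower at -1.06 when each value was set against the median of the 13 mitochondrially encoded mRNAs. Under SNS-032 its value in the authors' deposited table was -0.09 (interval -0.69 to 0.50, FDR 1.0). As shares of the DMSO level these are 58.7%, 202.0% and 93.7%. IER2 had the highest average level of the 4 in the authors' deposited table, 5.69 log2 CPM, and an implied standard error of 0.27 in each comparison.

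**Figure D1:**
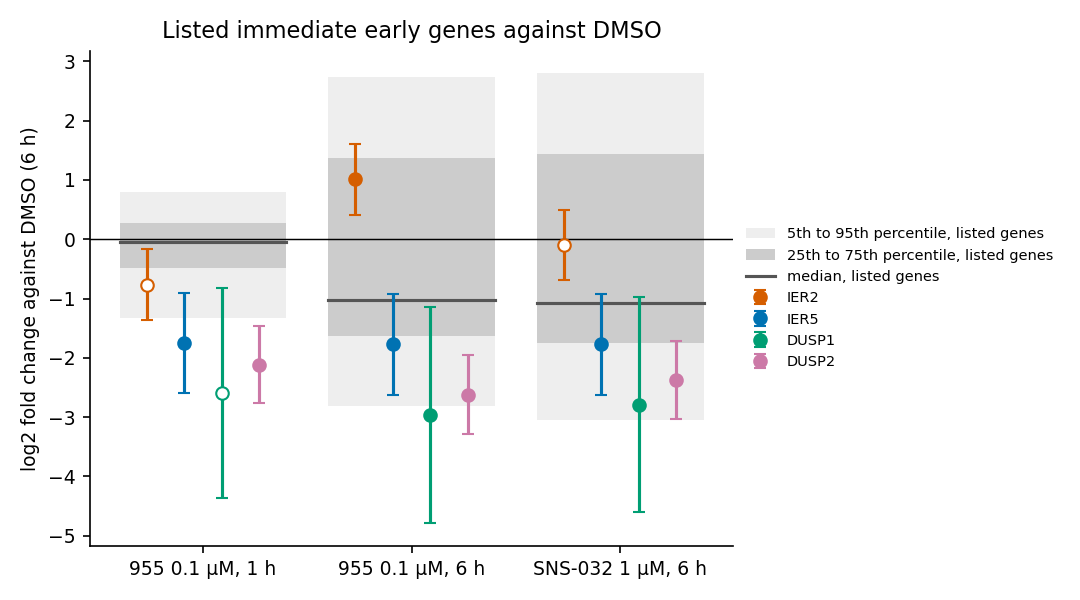
Log2 fold change against DMSO (vertical axis) of IER2, IER5, DUSP1 and DUSP2 in the 3 comparisons; bars are 95% intervals from the implied standard errors, filled points passed the threshold, open points did not, and grey bands show the spread of all listed genes. IER5, DUSP1 and DUSP2 lie below 0 throughout, DUSP1 with the widest bars, while IER2 moves from -0.77 at 1 h to 1.01 after 6 h of 955 and -0.09 with SNS-032.

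A gene passed the threshold with an FDR under 0.05 and a log2 fold change of 1 or more in either direction. At 1 h 2 of the 4 genes were lower past it (IER5 and DUSP2), where 7.71% of listed genes were. After 6 h of 955, IER5, DUSP1 and DUSP2 were lower (3 of 4, background 50.1%) and IER2 higher (1 of 4, background 35.2%). With SNS-032 the same 3 were lower (3 of 4, background 52.5%) and IER2 passed in neither direction. The median log2 fold changes of the 4 genes were -1.93, -2.20 and -2.07, beside -0.05, -1.03 and -1.07 over all listed genes. At 6 h most listed genes passed, so the counts at 6 h single out nothing about the 4.

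Levels in each group are not in the table, but they follow from the average level and the 3 fold changes if the average is read as the log2 of the mean CPM over 4 equal groups. Read so, IER2 stood at 45.6 CPM in DMSO, 26.7 after 1 h of 955, 91.9 after 6 h of 955 and 42.7 with SNS-032. IER5 stood at 24.2 CPM in DMSO and at 7.2, 7.09 and 7.1 in the treated groups in the same order. DUSP2 went from 20.8 CPM to 4.79, 3.38 and 4.0. DUSP1 went from 7.22 CPM to 1.20, 0.918 and 1.04. For IER5, DUSP1 and DUSP2, 955 at 6 h did not pass under the authors' scaling in a contrast with 955 at 1 h or with SNS-032, and 955 at 1 h was not compared with SNS-032. If the average is instead the mean of the log2 CPM, all these levels are 1.11 to 1.53 times higher, and the shares of the DMSO level do not change.

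**Figure D2:**
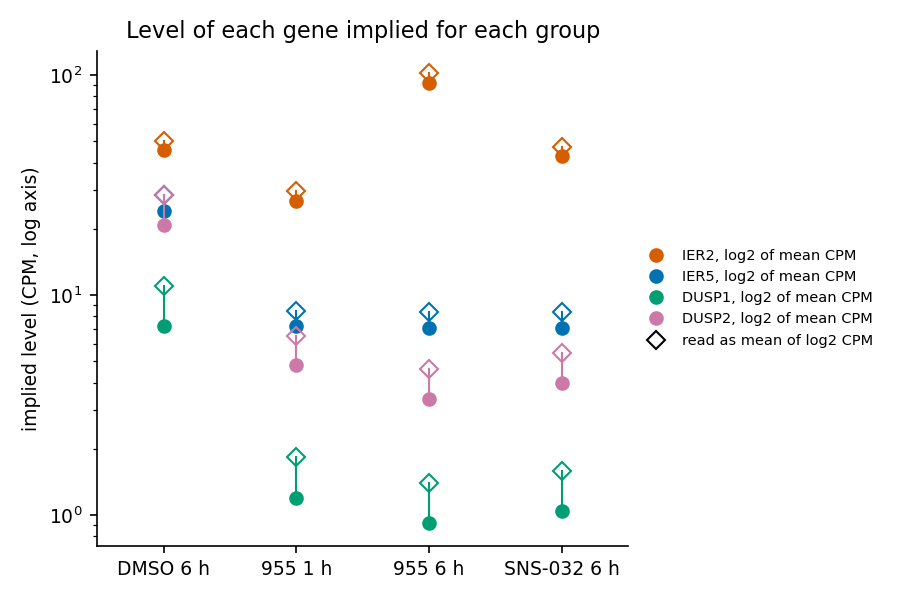
Level implied for each group (vertical log axis, CPM) of the 4 genes, as circles when the average is read as the log2 of the mean CPM and as diamonds when read as the mean of the log2 CPM; the points are derived from the authors' table and carry no replicate error. IER5, DUSP1 and DUSP2 are lower in all treated groups than in DMSO, and IER2 is highest, at 91.9 CPM, after 6 h of 955.

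Between 1 h and 6 h of 955, 1 of the 4 genes, IER2, changed past the threshold under the authors' scaling, and IER5 and DUSP2 in its place relative to mitochondrial mRNAs. The contrast was the difference of the log2 fold changes, with the root mean square of their implied standard errors, adjusted over all listed genes by Benjamini-Hochberg. IER2 was higher at 6 h by 1.78 (interval 1.18 to 2.38, adjusted p 7.91e-05), where 27.0% of listed genes were higher, but by 0.38 (adjusted p 0.225) when scaled on mitochondrial mRNAs. DUSP1 differed by -0.38 (interval -2.18 to 1.41, adjusted p 0.668). Under the authors' scaling the intervals leave room for changes of either sign in IER5, DUSP1 and DUSP2.

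Between 955 and SNS-032 at 6 h, at doses of 0.1 and 1 µM, 0 of the 4 genes passed in this contrast, where 1.11% of listed genes did. An unadjusted p under 0.05 was found for 1 of the 4 (IER2) and for 850 of the 5759 listed genes. IER2 was higher with 955 by 1.10 (interval 0.51 to 1.70, p 0.00182, adjusted p 0.0597), a difference that placed it at percentile 97.8 of the listed genes. Scaled on mitochondrial mRNAs the difference was 1.38 with an adjusted p of 0.00852, which passed, where 2.95% of listed genes were higher. DUSP2 differed by -0.24 (interval -0.90 to 0.42), IER5 by 0.0 (-0.85 to 0.85) and DUSP1 by -0.18 (-2.0 to 1.63). The interval for DUSP1 spans differences of over 3-fold in both directions, so a similar response is not shown for it.

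The direction of IER2 at 6 h and the size of every fall depended on what the libraries were scaled to. The 13 mRNAs of the mitochondrial genome are made by a polymerase of their own, and the authors' deposited table gave them median log2 fold changes of 0.67 for 955 at 1 h, 2.07 for 955 at 6 h and 2.35 for SNS-032. Set against these mRNAs, IER5 was at -2.42, -3.84 and -4.11, DUSP2 at -2.79, -4.69 and -4.72, DUSP1 at -3.27, -5.05 and -5.14, and IER2 at -1.44, -1.06 and -2.44. On that scale all 4 genes were lower past the threshold in each comparison with DMSO. Of listed genes 30.7% were lower at 1 h, 66.4% after 6 h of 955 and 72.1% with SNS-032. Adjustment on that scale was over the 5759 listed genes and not the 28395 tests behind the authors' FDR. Counts against DMSO thus differ between the scales in both scaling and adjustment, and the 2 were not separated. Between 1 h and 6 h of 955, 2 of the 4 (IER5 and DUSP2) were then lower, where 58.1% of listed genes were. Which scaling is nearer to the amount of mRNA per cell was not tested.

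**Figure D3:**
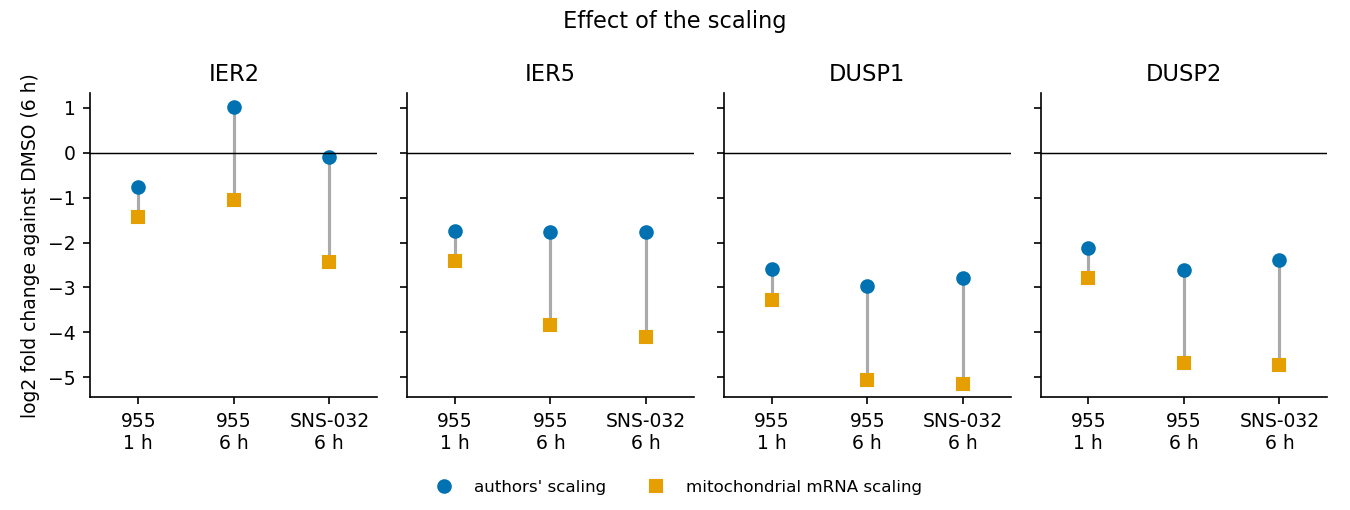
Log2 fold change against DMSO (vertical axis) of each gene in the 3 comparisons under the authors' scaling (circles) and relative to the mitochondrially encoded mRNAs (squares), with a grey line joining the same comparison. The shift is 0.67 at 1 h and over 2 at 6 h, and IER2 after 6 h of 955 goes from 1.01 to -1.06.

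Other immediate early genes, from a list of 36 of which 20 were listed, were lower in part at 1 h. The lists here and below, like the members, were chosen with earlier results of these data known. Their counts beside the shares of all listed genes are therefore descriptions and no test. Of these 20, 8 were lower and 0 higher past the threshold at 1 h, with a median of -1.26, beside 7.71% lower, 0.729% higher and a median of -0.05 over all listed genes. In the authors' deposited table SOCS3, an inhibitor of cytokine signalling, was at -2.51 (FDR 0.0363). CSRNP1, a nuclear transcription regulator, was at -2.04 (FDR 0.0186) there. Both had low average levels there, 0.87 and 1.14 log2 CPM, and their implied standard errors were 0.67 and 0.51. ID3, an inhibitor of basic helix-loop-helix factors, was at -2.03 with an FDR of 0.343 in the authors' deposited table. After 6 h of 955, 10 of the 20 were lower, near the 50.1% of all listed genes, and 3 higher, where 35.2% were. The median was -1.27, beside -1.03 over all listed genes. With SNS-032, 16 were lower and 3 higher (median -1.85), beside 52.5% lower, 37.8% higher and a median of -1.07 over all listed genes. The 3 higher genes were the same in both, FOS, FOSL2 and MAFF. The authors' deposited table put FOSL2, an AP-1 subunit, at -1.31 at 1 h (FDR 0.0166), 1.78 for 955 at 6 h (6.85e-05) and 1.46 for SNS-032 (0.000569), and MAFF, a small MAF protein, was at -1.02 (0.483), 1.95 (0.00541) and 2.27 (0.00146). Scaled on mitochondrial mRNAs FOSL2, MAFF and FOS were at -0.30, -0.13 and -0.71 after 6 h of 955, and 0 of the 20 were higher past the threshold in either 6 h comparison, where 2.47% of listed genes were with 955 and 2.01% with SNS-032. From 1 h to 6 h of 955, 3 of the 20 were higher and 3 lower past the threshold, beside 1556 and 2053 of the 5759 listed genes. Lower were ID3 at -2.71 (adjusted p 0.0199), MYC at -2.04 (5.23e-05) and NFKBIA at -1.08 (0.00351). FOSL2 was higher by 3.09 (adjusted p 9.24e-09) and MAFF by 2.97 (3.03e-05), in the same direction as IER2, and by 1.69 and 1.57 when scaled on mitochondrial mRNAs. After that scaling 2 of the 20 were higher and 12 lower, beside 206 and 3344 of all listed genes. SOCS3 was higher at 6 h than at 1 h by 2.0 (adjusted p 0.00817), with 0.61 (adjusted p 0.41) after that scaling.

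Among 22 other DUSP genes 7 were listed. At 1 h 2 of 7 were lower past the threshold, where 7.71% of listed genes were, DUSP6, the cytoplasmic ERK phosphatase, at -1.64 (FDR 0.0466) and DUSP7, a close relative of it, at -1.40 (FDR 0.00026) in the authors' deposited table. DUSP18 was at -0.66 with an FDR of 0.427 in the authors' deposited table. After 6 h, 5 of 7 were lower with 955 and 7 of 7 with SNS-032, with medians of -1.58 and -1.99, beside 50.1% and 52.5% lower and medians of -1.03 and -1.07 over all listed genes. DUSP7 fell further between 1 h and 6 h of 955, by 1.03 on the log2 scale (adjusted p 0.000199), whereas DUSP6 was at 0.53 (adjusted p 0.279) in that contrast.

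Few relatives of the EGR and KLF genes were listed. Of 6 further EGR and IER family genes and EGR corepressors the 1 listed was NAB2, a corepressor that EGR proteins bind and also induce. The authors' deposited table put NAB2 lower at -1.22 at 1 h (FDR 0.00488), -2.0 for 955 at 6 h (1.36e-06) and -1.90 for SNS-032 (2.58e-06). Of 16 other KLF genes the 1 listed was KLF8, whose average in the authors' deposited table was 0.13 log2 CPM. The authors' deposited table put KLF8 higher for 955 at 6 h, at 1.85 (FDR 0.0183), and at 1.15 for SNS-032 (FDR 0.173), and the values were -0.22 and -1.20 when scaled on mitochondrial mRNAs.

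Factors upstream of immediate early transcription were listed in smaller numbers. Of serum response factor and its partners 2 of 8 were listed. SRF itself was at 0.02 at 1 h in the authors' deposited table (FDR 1.0), and fell at 6 h, to -1.21 under 955 (0.0105) and -1.16 under SNS-032 (0.0126). MRTFA, its actin-regulated coactivator, was at -0.96 at 1 h (FDR 0.000295, under the fold bound), and lower at -1.46 and -1.34 at 6 h (3.54e-08 and 1.17e-07) in the authors' deposited table. Of 31 MAP kinase cascade genes 10 were listed. At 1 h 1 was higher and 2 lower (median -0.19), where 0.729% and 7.71% of listed genes were. After 6 h of 955, 4 were higher and 4 lower, where 35.2% and 50.1% of listed genes were. With SNS-032, 4 were higher and 3 lower, where 37.8% and 52.5% were, so the 6 h counts single out nothing about this list. The 2 lower at 1 h were inhibitors of the cascade, SPRY2 at -1.62 (FDR 0.0251) and SPRED2 at -1.33 (1.15e-05), and the higher one was MAPK13, a p38 kinase, at 1.5 (0.0125) in the authors' deposited table. On the mitochondrial scale 0 of the 10 were higher in any of the 3 comparisons (0.278%, 2.47% and 2.01% of listed genes). MAPK13 was then at 0.83 at 1 h.

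Of 16 genes that bind AU-rich elements or shorten poly(A) tails 9 were listed. Their median at 1 h was -0.02, beside -0.05 over all listed genes. At 1 h 2 of the 9 were lower, where 7.71% of listed genes were. These were ZFP36L2 at -1.21 (FDR 0.00327) and ZFP36L1 at -1.17 (FDR 0.0332) in the authors' deposited table. Both, and ZFP36, at -1.41 with an FDR of 0.0874 in the authors' deposited table, encode proteins that bring AU-rich mRNAs to decay and are immediate early genes as well, so both lists hold them. After 6 h of 955 the list had 1 higher and 4 lower (median -0.87), where 35.2% and 50.1% of listed genes were (median -1.03). With SNS-032 it had 2 higher and 5 lower (median -1.10), where 37.8% and 52.5% were (median -1.07). The lower counts and the medians at 6 h were thus near those of all listed genes. On the mitochondrial scale 0 were higher and 8 lower in each 6 h comparison, where 66.4% and 72.1% of listed genes were lower.

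**Figure D4:**
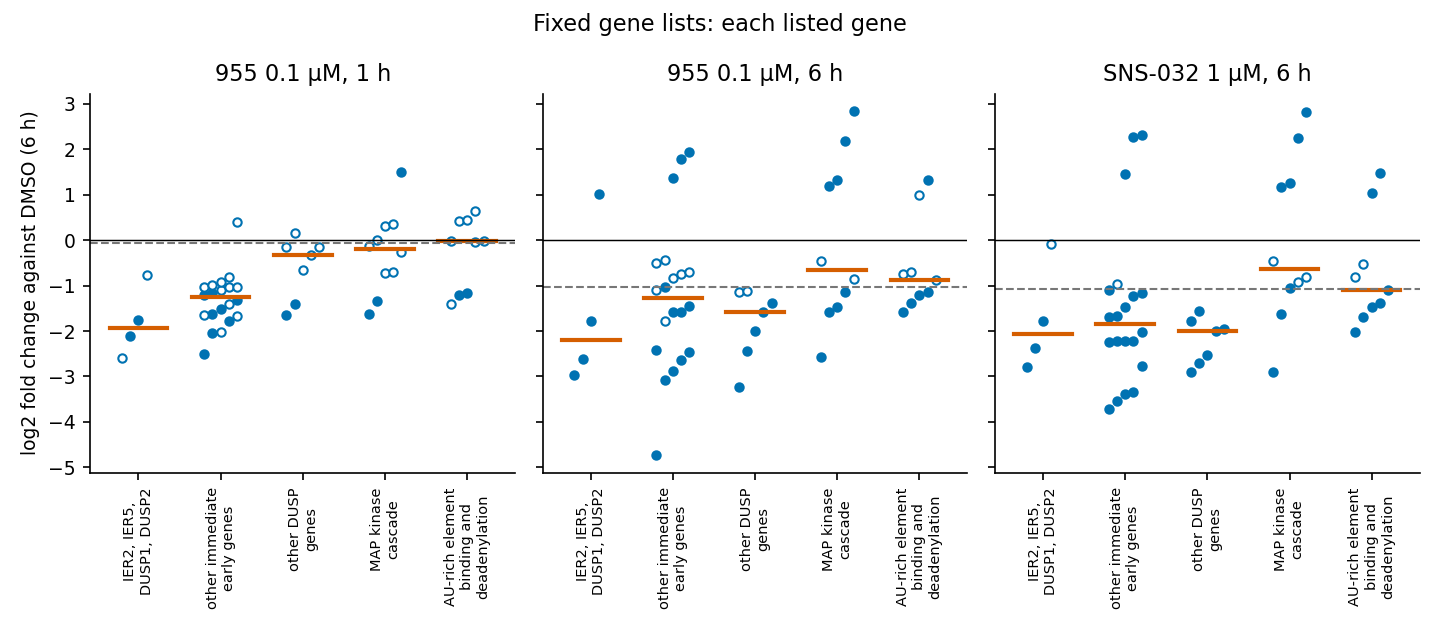
Log2 fold change against DMSO (vertical axis) of every listed gene of 5 lists in the 3 comparisons; filled points passed the threshold, orange bars are list medians and the dashed line is the median of all listed genes. At 1 h the 4 genes (median -1.93) and the other immediate early genes (median -1.26) lie lowest, while the MAP kinase and AU-rich element lists lie at -0.19 and -0.02.

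Other genes were ranked by Euclidean distance over the 3 log2 fold changes from the median profile of the 4 (-1.93, -2.20 and -2.07). The ranking covered 2787 protein-coding genes at or above the median level. IER2, at -0.77, 1.01 and -0.09, did not follow that profile, so genes near it are not like IER2. PPM1D, a phosphatase of the p53 pathway, came first at a distance of 0.25, with -1.69, -2.16 and -2.11 in the authors' deposited table. TFAP2C, an AP-2 transcription factor, followed at 0.30, then FAM111B at 0.39, the cell-cycle inhibitor CDKN1B at 0.51 and MIDN, which encodes the proteasome-associated protein midnolin, at 0.57. Among the 4 themselves DUSP1 and DUSP2 were closest, at 0.72, and IER2 and DUSP1 farthest apart, at 5.15. The 3 comparisons share their DMSO samples, so likeness over them is a description.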

How the data were processed

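RNA from 12 samples was extracted with a column kit and made into mRNA libraries with a BGI kit, per the labels' protocols. The deposited log2 fold changes, average log2 CPM, F statistics (a score), p-values and FDR are those of the authors' 3 comparisons with DMSO, per the file headers. The log base was read as 2 because every gene reaches 1.001 in some comparison. The submitters' processing notes name DESeq2 and hg38 with no role, and the column names of the table are not those DESeq2 writes. The aligner, counter, strand and annotation are not given in the sources used here. Tests planned for values per sample gave way to the authors' own.

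Standard errors, denominator degrees of freedom (solved from F and p, lowest 8.23, median 23.3) and contrasts of treated groups were computed with scipy 1.17.1 and tested on simulated data. The number of tests, 28395, is the one for which tests times p over FDR was whole (within 0.01) for 81.1% of 3083 values. Mitochondrial scaling subtracted the median of 13 mRNAs, with adjustment over the listed genes and no error for that median. Gene IDs were matched to RefSeq GRCh38.p14 (5727 of 5759). Promoters came from RefSeq, with 4534 of the listed genes matched, and transcripts from GENCODE release 29, 1 per gene (principal isoform, then longest coding sequence). All 10 genes, and the 3 genes of each list with the largest change at 1 h, were to be named. FOS, FOSL2, MAFF and KLF8 were also named, as genes past the threshold. The members and lists were chosen with earlier results of these data known. A marker of the fixed lists is not reported here.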

Additional observations from a re-analysis of the deposited data

Results flagged for a closer look

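IER2 differed between the 1 h and the 6 h of 955, with a log2 difference of 1.78 (standard error 0.27) in favour of 6 h by the test of that difference (adjusted p 7.91e-05). Without credit for the shared control samples the adjusted p was 0.00161, and as if adjusted over all genes tested it was 0.00039. Relative to mitochondrial mRNAs the difference was 0.38 with an adjusted p of 0.225, so the call rests on the authors' scaling. The 1 h samples have no vehicle group of their own time.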

How the results depend on the processing

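The number of the 4 genes past the threshold was recomputed under each alternative. With an FDR under 0.01 it went from 2 to 1 after 1 h of 955 and from 4 to 2 after 6 h. With a bound of 2 on the log2 fold change it was 1 at 1 h, 2 after 6 h of 955 and 0 for 6 h against 1 h of 955. Shares of all listed genes at these stricter thresholds were not computed, so the smaller counts say nothing particular to the 4 genes. Scaled on mitochondrial mRNAs it was 4 at 1 h (30.7% of listed genes lower). That count against DMSO was also adjusted over the listed genes alone, so it does not show the effect of scaling by itself. For 6 h against 1 h of 955 it was 2 (IER5 and DUSP2 in place of IER2, 58.1% lower). For 955 against SNS-032 it was 1 (IER2, 2.95% higher), and the log2 fold change of IER2 after 6 h of 955 reversed to -1.06. The other alternatives left these counts within 1.5 times: no fold-change bound, an average level of at least 1 log2 CPM, the larger implied standard error, an error without credit for the shared control, and adjustment as if over all genes tested. The adjusted p of IER2 for 955 against SNS-032 ranged from 0.00852 to 0.586 over the alternatives. No paired analysis was possible because the table holds comparisons and no values per sample, and leaving out replicates was not run for the same reason. Depth is unknown. DUSP1 had the lowest average level and the largest implied standard errors of the 4 genes, and why it was imprecise was not tested.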

Other observations

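The genes nearest to IER2 were also ranked among the listed protein-coding genes at or above the median level. The nearest, in a search added after the values of IER2 were seen, were DYRK2 at a distance of 0.84, ZNF548 at 0.93 and MAP3K9 at 0.96. The gene nearest to the median profile of the 4 was at 0.25. A median profile and a single gene are unlike references, and no such search was run for IER5, DUSP1 or DUSP2. Whether IER2 lacks a close match was therefore not tested. DYRK2, a kinase that phosphorylates p53, was put by the authors' deposited table at -1.09 for 955 at 1 h, 0.60 for 955 at 6 h and 0.57 for SNS-032.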
